A study of Mus musculus with 12 samples.

Results

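The disease effect without drug was described by setting 3 kidney cortex libraries labelled glomerulonephritis and water (GN_water) against 3 labelled control and water (Control_water), which are 6 of the 12 libraries in the series. The rule names the libraries by their labels. GN_water mice were adult C57BL/6 mice that received 10 mg of horse spleen apoferritin, the antigen, intraperitoneally 5 times a week together with 100 micrograms of lipopolysaccharide as adjuvant 3 times a week, for 6 weeks. They drank water without drug. Control_captopril mice received saline on the same schedule and captopril, an inhibitor of angiotensin-converting enzyme whose dose is not in the labels, and Control_water mice received saline and water. All 3 groups were labelled male, and cortex was taken at week 9. Each title holds a pair of numbers, and whether each library is 1 mouse or a pool is not stated, so the p-values measure the spread between these libraries, which may be partly technical. The injected mixture holds both the antigen and the adjuvant, and no group received the adjuvant alone, so the effects of the 2 agents cannot be told apart. Library totals were 18.7 to 22.6 M counts in GN_water, 19.6 to 22.2 M in Control_captopril and 16.5 to 22.8 M in Control_water.

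In immune complex glomerulonephritis, circulating or locally formed complexes of antigen and antibody lodge in the glomerular tuft, where they engage Fc receptors and activate complement. Chemokines and adhesion molecules then draw leukocytes into the glomeruli and the interstitium, and the tubules downstream can show injury markers, loss of transport and metabolic transcripts, and interstitial matrix. Whole cortex is measured here, so RNA of glomeruli, tubules, vessels and infiltrating cells is mixed, and fewer cells of a type and less RNA per cell cannot be told apart.

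The control groups differ from each other in sex-linked transcripts and in renin. GN_water stands with Control_captopril in both. Xist, transcribed from the inactive X (chromosome X, 103460373 to 103483233 of mm10), had 209, 212 and 181 CPM (counts-per-million, scaled between libraries) in GN_water, against 375, 314 and 345 CPM in Control_captopril and 0, 0.182 and 0.0645 CPM in Control_water. The Y-linked genes Ddx3y, Kdm5d, Uty and Eif2s3y summed to at most 0.0458 CPM in GN_water libraries and at most 0.101 CPM in Control_captopril libraries, against 121 to 144 CPM in Control_water libraries. Thus the label male is at odds with the transcripts of the 3 GN_water and the 3 Control_captopril libraries, and the labels GN and control are separated in the main comparison in the same way as these markers are. Disease, the sex-linked difference and the renin difference therefore cannot be told apart from GN_water against Control_water alone. Each gene described below was also set against Control_captopril, whose libraries carry Xist as GN_water libraries do but are labelled with the drug.

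**Figure D1:**
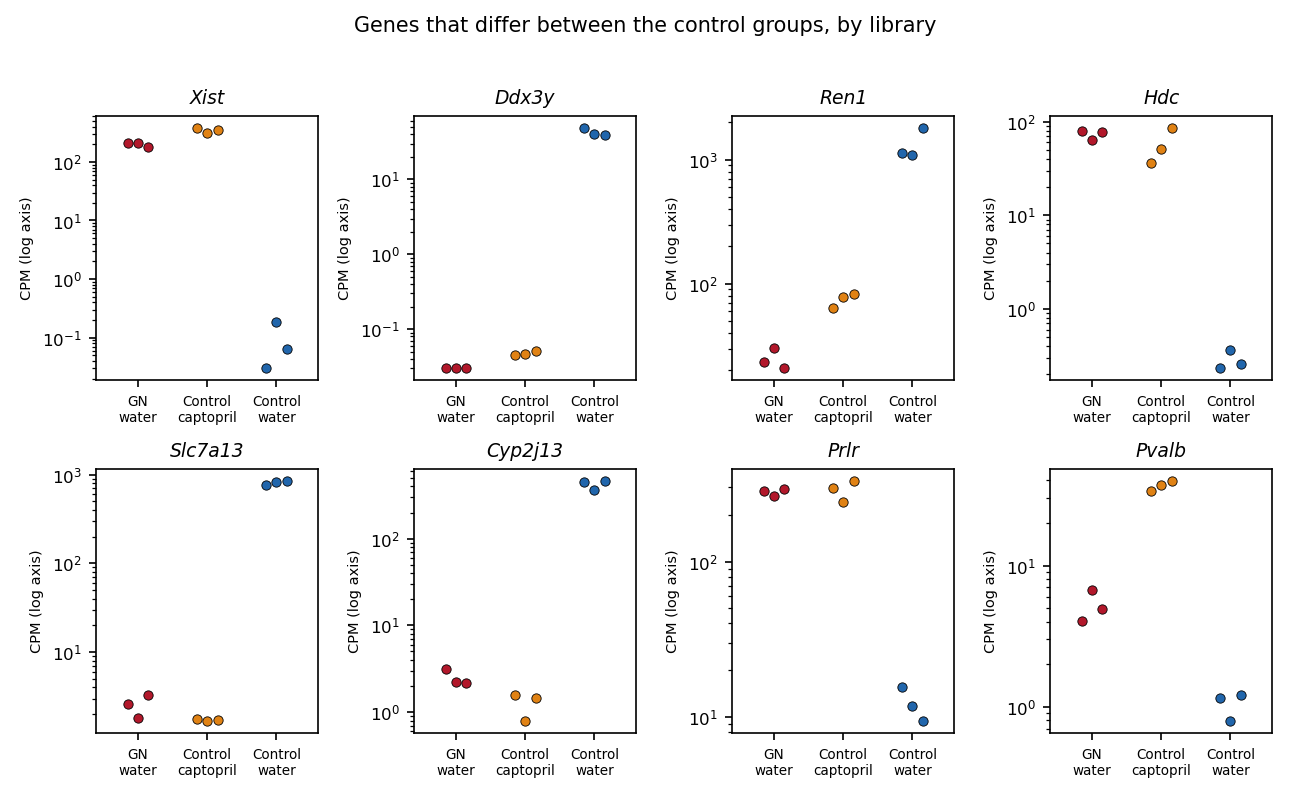
CPM on log axes for 8 genes in each of the 3 libraries of GN_water, Control_captopril and Control_water (1 point per library, no error drawn; values under 0.03 CPM are drawn at 0.03). Xist, Hdc and Prlr are high and Ddx3y, Slc7a13 and Cyp2j13 low in both GN_water and Control_captopril relative to Control_water, Ren1 falls in the order Control_water, Control_captopril, GN_water, and Pvalb in GN_water lies between the 2 control groups.

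Kidney cortex identity was present in all 9 libraries. The proximal tubule phosphate transporter Slc34a1 had 4223.2, 4178.4 and 3617.8 CPM in GN_water, 4338.3, 4757.2 and 4651.3 CPM in Control_captopril, and 7975.5, 7016.2 and 7234.2 CPM in Control_water. Nphs1, nephrin of the podocyte slit diaphragm, had at least 34.6 CPM in every one of these libraries and Umod, uromodulin of the thick ascending limb, at least 2515.8 CPM. The pancreas markers Prss2 and Cpa1 and the muscle markers Acta1 and Ckm stayed at or under 0.279 CPM, whereas the muscle myosin Myh1 reached 8.43 CPM in GN_water and 7.31 CPM in Control_captopril and was at 0 in Control_water. The muscle and mesothelium list summed to 16.9 to 23.4 CPM in GN_water, 21 to 26.7 CPM in Control_captopril and 15.5 to 18.3 CPM in Control_water. Adrenal cortex transcripts stood out in Control_captopril replicate 3, where Star, the steroidogenic cholesterol carrier, had 109 CPM against 0.544 to 1.15 CPM in GN_water, 2.42 and 1.24 CPM in the other Control_captopril libraries and 0.884 to 1.03 CPM in Control_water. The fat marker Adipoq had 8.61, 13.8 and 0.198 CPM in GN_water, 12.2, 5.2 and 17.3 CPM in Control_captopril and 6.05, 2.12 and 8.45 CPM in Control_water, so fat transcripts varied within every group.

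Among 14618 genes that entered the test, 7491 (51.2%) differed between GN_water and Control_water, with 4000 (27.4%) higher and 3491 (23.9%) lower in GN_water at an adjusted p under 0.05 (edgeR quasi-likelihood test, two-sided, Benjamini-Hochberg adjustment over all genes tested), 1555 and 390 of them by at least 2-fold. Against Control_captopril, 4406 genes (30.1%) differed: 2476 genes (16.9%) were higher and 1930 (13.2%) lower, 1082 and 76 of them by at least 2-fold. The control groups themselves differed in 4731 genes (32.4%). Of the 4000 genes higher than in Control_water, 1972 (49.3%) were also higher than in Control_captopril, 1874 did not pass the test there and 154 were lower. Of the 3491 lower genes, 1159 (33.2%) were also lower than in Control_captopril, 2237 did not pass and 95 were higher. Genes called the same way against both controls were 13.5% of all genes tested for higher and 7.93% for lower. Both comparisons share the 3 GN_water libraries, so these counts are not independent replication. For changes of at least 2-fold the directions parted, as 907 of 1555 higher genes (58.3%) met that fold against Control_captopril too, but 21 of 390 lower genes (5.4%).

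The median log2 fold change over all genes was 0.01 against Control_water and 0.00 against Control_captopril, so changes are given relative to the typical gene. With library totals alone in place of the trimmed-mean scaling that these values rest on, the medians were 0.21 and 0.09, and 6758 genes were higher and 1575 lower than in Control_water (3516 and 1002 against Control_captopril). The share of calls that were higher then was 81.1% in place of 53.4% against Control_water, and 77.8% in place of 56.2% against Control_captopril. Lists of genes are described below by how many of their tested members passed the test in each direction and by their median log2 fold change, to be read beside these shares and medians of all genes.

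**Figure D2:**
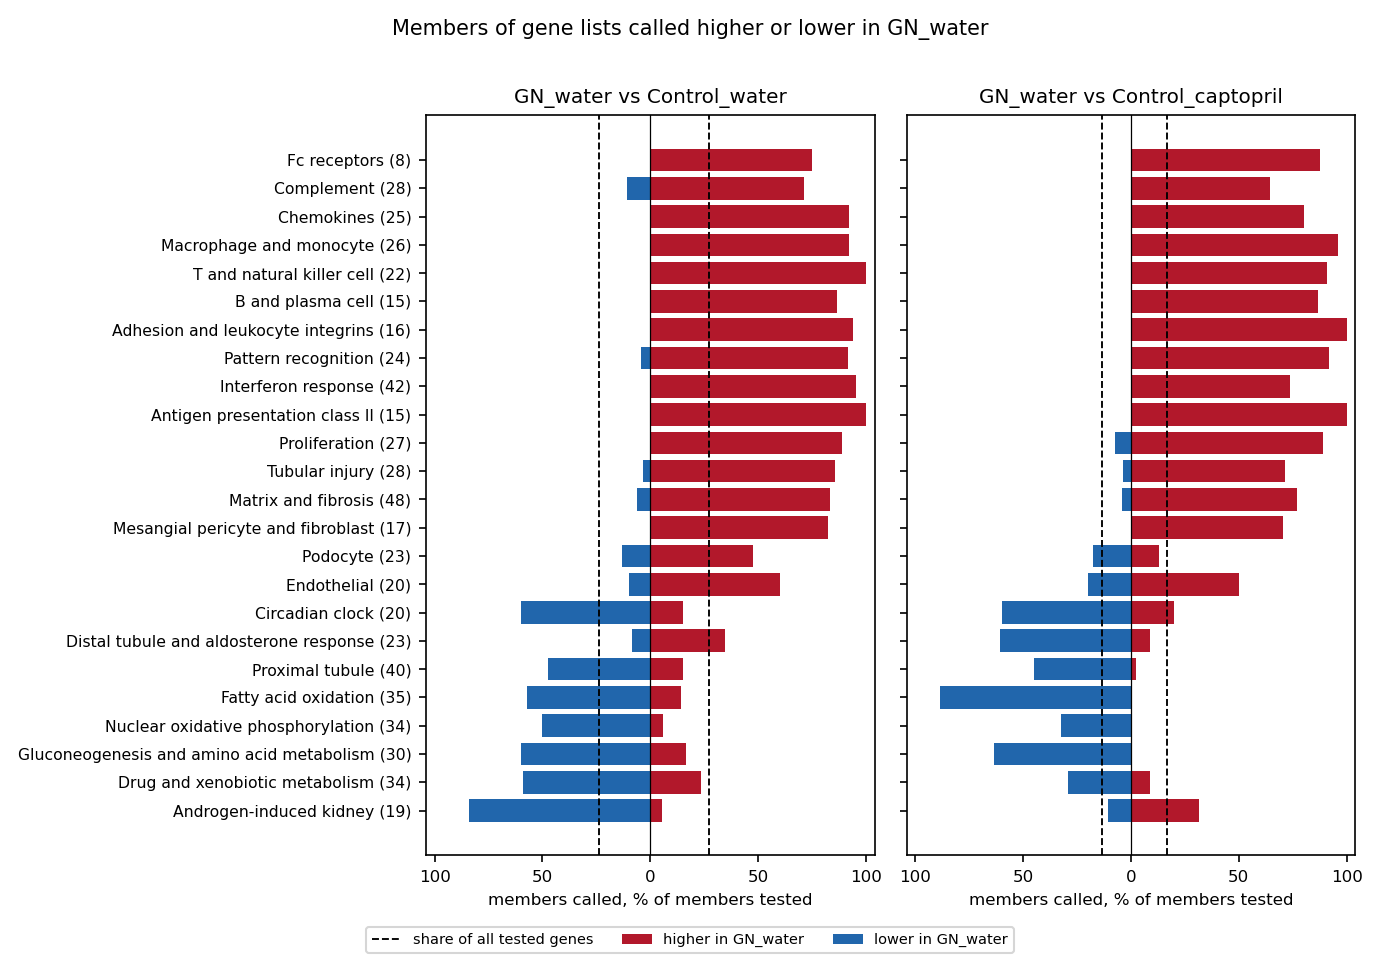
Percentage of the tested members of 24 gene lists that were called higher (bars to the right) or lower (bars to the left) in GN_water than in Control_water (left panel) and than in Control_captopril (right panel), with the number of members tested in parentheses; dashed lines are the shares of all tested genes called in that direction. Immune, matrix and injury lists extend to the right in both panels and fatty acid oxidation and clock genes to the left in both, whereas the androgen-induced list lies mostly to the left in the left panel and mostly to the right in the right panel.

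The largest differences from Control_water include many that are absent against the second control. Among the 12 genes that were higher by the most, with at least 5 CPM and no overlap between libraries, 8 were also higher than in Control_captopril. They were Saa3, Marco, Cxcl13, Irg1, Jchain, Fpr1, Ccl8 and Cd5l, all expressed by leukocytes or in inflamed tissue. Hdc, histidine decarboxylase, which makes histamine, had 78.3, 63.1 and 76.7 CPM in GN_water, 35.7, 51.4 and 84.7 CPM in Control_captopril and 0.233, 0.364 and 0.258 CPM in Control_water. It was thus far above Control_water (log2 fold change 7.98 ± 0.43 (SE), adjusted p = 1.63e-08), but overlapped Control_captopril (0.35 ± 0.21, adjusted p = 0.246). Myh1, a skeletal muscle myosin, had 8.43, 5.47 and 4.55 CPM in GN_water, 7.31, 3.27 and 6.88 CPM in Control_captopril and was at 0 in all 3 Control_water libraries. Xist and Ugt1a2, a glucuronosyltransferase whose exons are partly shared with other Ugt1a genes, were higher than in Control_water and lower than in Control_captopril. Ugt1a2 had 1012.3, 967 and 860 CPM in GN_water, against 1531.1, 1463.5 and 1637.9 CPM in Control_captopril and 2.19, 2.31 and 2.84 CPM in Control_water.

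The 12 genes that were lower by the most did not keep their call, since 11 did not pass the test against Control_captopril and 1 was higher. They were the Y-linked Ddx3y, Uty, Kdm5d and Eif2s3y, the organic anion transporter Slco1a1, the major urinary protein genes Mup7, Mup14 and Mup15, which are near-identical copies that can share reads, Mpped1, the protease inhibitor Pzp, the acyl-CoA synthetase Acsm3 and the amino acid transporter Slc7a13. Slc7a13 (chromosome 4, 19818727 to 19842213) had 2.57, 1.81 and 3.26 CPM in GN_water, 1.75, 1.66 and 1.72 CPM in Control_captopril and 760, 825 and 838 CPM in Control_water. It was 321-fold lower than in Control_water (log2 fold change -8.33 ± 0.13 (SE), adjusted p = 8.63e-14) and slightly higher than in Control_captopril (0.55 ± 0.18, adjusted p = 0.0328), a call that was lost when Control_captopril replicate 1, 2 or 3, or GN_water replicate 1 or 3, was left out (adjusted p up to 0.275). All 12 also differed between the control groups.

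Kidney genes induced by androgens followed the same pattern. Of 19 tested, 16 were lower and 1 higher in GN_water than in Control_water (median log2 fold change -2.41), while 2 were lower and 6 higher than in Control_captopril (median 0.36, or 0.32 with a gene that was at 0 in a whole group set at the bound that 3 counts over the group allow; 3 to 7 higher when libraries were left out in turn). Cyp2j13, an epoxygenase of male kidney, had 3.12, 2.22 and 2.17 CPM in GN_water, 1.57, 0.783 and 1.47 CPM in Control_captopril and 452, 368 and 457 CPM in Control_water. Its small difference from Control_captopril (0.97 ± 0.28, adjusted p = 0.0172) was lost without Control_captopril replicate 2 or GN_water replicate 1 (adjusted p of 0.0839 and 0.0843). The exception was Aoc1, diamine oxidase, which degrades histamine and polyamines, with 22.3, 18.3 and 21.3 CPM in GN_water, 3.01, 2.86 and 3.29 CPM in Control_captopril and 5.12, 6.61 and 6 CPM in Control_water. It rose against both (log2 fold changes of 1.81 ± 0.15 and 2.75 ± 0.16, adjusted p of 7.01e-07 and 4.74e-07) and is named here after its values were seen.

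Among 17 genes known as higher in female kidney, 9 were higher and 6 lower than in Control_water, and 1 was higher and 3 lower than in Control_captopril. Prlr, the prolactin receptor, had 285, 266 and 295 CPM in GN_water, 299, 243 and 328 CPM in Control_captopril and 15.6, 11.7 and 9.35 CPM in Control_water, with no difference past the test between GN_water and Control_captopril (log2 fold change -0.04 ± 0.23, adjusted p = 0.918). The bile salt and conjugate exporter Abcc3 (109, 86.5 and 115 CPM in GN_water, 142, 66.2 and 110 CPM in Control_captopril, 2.14, 2.18 and 1.81 CPM in Control_water) and the transporter Slc7a12 behaved likewise. Prlr and these 2 were named after their values were seen, and all 3 were higher than in Control_water. The 6 lower members are not described. The summed level of the list went the other way, at 4497.7 to 4739.9 CPM in GN_water and 4579.6 to 5463.3 CPM in Control_captopril against 9239.2 to 9572.2 CPM in Control_water.

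With the second control as a check, 183 genes were named by their size of change, by the lists or in a fixed set, and called against Control_water. Of these, 124 were called the same way against Control_captopril, 46 did not pass the test and 13 were called in the opposite direction. Over all called genes, 49.3% of the higher and 33.2% of the lower kept their direction. The named genes were picked partly by size of change or small adjusted p, which favours agreement, so their count does not measure agreement in general. Another rule named 20 higher and 20 lower genes and required a call and no overlap against both controls. For these, separation from both controls was a condition of the choice and is no separate result. The higher ones include Cfp, Cxcl13, Ccl8, Lyz2, Lyz1, Fcrls, Jchain, Mzb1 and Cd79a. The lower ones include Esm1, Ren1, Dnase1, Cyp2d12, Dbp, Per3, Per2, Nr1d2 and Tef. The groups of genes below are ordered from the receptors of immune complexes to the tubule.

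Receptors for IgG complexes rose against both controls. Of 8 Fc receptor genes tested, 6 were higher than in Control_water and 7 than in Control_captopril (median log2 fold changes of 1.99 and 1.88), and the rest did not pass. Fcer1g, the signalling chain shared by activating Fc receptors (chromosome 1, 171229572 to 171234349), had 38.4, 49.5 and 42.2 CPM in GN_water, 5.74, 8.24 and 7.99 CPM in Control_captopril and 6.94, 6.37 and 8.9 CPM in Control_water. All GN_water libraries lay above all control libraries, 5.89-fold over Control_water (adjusted p = 1.6e-06) and 5.93-fold over Control_captopril (adjusted p = 6.29e-06). Fcgr1, the high-affinity receptor, rose by 2.19 ± 0.23 and 2.23 ± 0.23 on the log2 scale, with 8.06, 8.84 and 8.85 CPM in GN_water, 1.3, 1.84 and 2.38 CPM in Control_captopril and 1.72, 2.49 and 1.42 CPM in Control_water. Fcgr3 rose by 2.44 ± 0.27 and 2.29 ± 0.26, and Fcgr4 by 1.78 ± 0.27 and 1.53 ± 0.26, against Control_water and Control_captopril in that order, the order used for all pairs of fold changes here. The inhibitory receptor Fcgr2b, named after its values were seen, had 53.9, 61.8 and 56.5 CPM in GN_water, 46.5, 42.4 and 50.1 CPM in Control_captopril and 51.6, 52 and 53.1 CPM in Control_water. It did not pass against Control_water (0.14 ± 0.07, adjusted p = 0.119), and its call against Control_captopril (0.31 ± 0.07, adjusted p = 0.00473) was lost without GN_water replicate 2 (adjusted p = 0.0586). Fcgrt, the neonatal receptor that recycles IgG in podocytes and tubule cells, had 258 to 273 CPM in GN_water, 281 to 317 CPM in Control_captopril and 274 to 301 CPM in Control_water, and did not pass against either (adjusted p of 0.214 and 0.0769). It too was named after its values were seen.

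Complement transcripts rose, with the central component and the classical pathway starter among them. Of 28 tested, 20 were higher and 3 lower than in Control_water (median 1.34), and 18 were higher than in Control_captopril while 10 did not pass (median 1.16). C3, the component on which all activation routes converge (chromosome 17, 57203967 to 57228136), had 402, 585 and 305 CPM in GN_water, 78.3, 75.3 and 86.9 CPM in Control_captopril and 72.3, 54.6 and 79.2 CPM in Control_water. The rise was 6.26-fold and 5.37-fold (adjusted p of 0.000534 and 0.00203), with a wide spread within GN_water. C1qa, a chain of C1q that binds antibody in complexes, had 118, 151 and 140 CPM in GN_water, 17.2, 23.2 and 26.5 CPM in Control_captopril and 20.3, 21.7 and 24.4 CPM in Control_water, and its groups did not overlap. C3ar1, the receptor of the C3a fragment, rose by 2.71 ± 0.20 and 2.79 ± 0.20, Cfp, properdin, which stabilises the alternative pathway convertase, by 4.15 ± 0.39 and 3.88 ± 0.37, and the inhibitor Cfi by 1.35 ± 0.12 and 1.15 ± 0.11. The 3 lower genes were Cfb, C4a and Masp2, of which the last 2 are named after their values were seen. Cfb, factor B of the alternative pathway, had 399, 379 and 341 CPM in GN_water, 347, 362 and 346 CPM in Control_captopril and 591, 593 and 649 CPM in Control_water, so its lower level (-0.71 ± 0.06) was shared with Control_captopril (0.09 ± 0.06, adjusted p = 0.344). C4a (at most 0.395 CPM in GN_water, 0.708 in Control_captopril and 2 in Control_water), which is similar to C4b and can share its reads, and Masp2 (at most 0.733, 0.538 and 2.25 CPM in the same groups) were low throughout.

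Chemokines that attract monocytes, T cells and B cells were among the largest rises. Of 25 tested, 23 were higher than in Control_water and 20 than in Control_captopril (medians of 2.14 and 1.77), with the rest not passing. Ccl2, the main attractant of monocytes (chromosome 11, 82035577 to 82037452), had 7.15, 7.52 and 5.68 CPM in GN_water, 0.314, 1.2 and 0.658 CPM in Control_captopril and 0.605, 0.243 and 0.903 CPM in Control_water, an 11.6-fold and 9.34-fold rise (adjusted p of 4.18e-06 and 1.9e-05). Cxcl13, which guides B cells into follicles, had 12.6, 42.4 and 17.6 CPM in GN_water, 0.359, 0.599 and 0.152 CPM in Control_captopril and 0.0931, 0.0607 and 0.0645 CPM in Control_water. Its log2 rise of 8.23 and 5.99 was 7.5 and 5.26 without GN_water replicate 2. Ccl8, another monocyte attractant, had 9.67, 16.6 and 12.4 CPM in GN_water, 0.0449, 0.138 and 0.303 CPM in Control_captopril and 0.0931, 0.0607 and 0.0645 CPM in Control_water. Ccl5, an attractant of T cells and monocytes, rose by 2.79 ± 0.32 and 2.74 ± 0.31, and Ccl19, a ligand of Ccr7, by 1.80 ± 0.19 and 1.13 ± 0.18. All 10 chemokine receptors tested were higher than in Control_water and 7 of them than in Control_captopril (medians of 1.95 and 1.35). Cx3cr1, the fractalkine receptor of monocytes, had 31.2, 33.8 and 31.4 CPM in GN_water, 7.72, 8.98 and 8.29 CPM in Control_captopril and 9.92, 8.68 and 8.06 CPM in Control_water. Ccr1 did not keep its call (2.42 ± 0.30, then 0.63 ± 0.24 with an adjusted p of 0.0674 against Control_captopril).

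Of 23 cytokine and cytokine receptor genes tested, 19 were higher and 2 lower than in Control_water, and 20 were higher than in Control_captopril (medians of 1.25 and 0.95). Csf1, the macrophage growth factor, had 29.3, 25.5 and 27.3 CPM in GN_water, 8.21, 12.1 and 8.85 CPM in Control_captopril and 8.89, 9.1 and 9.86 CPM in Control_water. Il1b rose by 2.08 ± 0.20 and 2.25 ± 0.19 and is named after its values were seen. Its soluble antagonist Il1rn had 2.52, 3.17 and 2.67 CPM in GN_water, 0.135, 0.0921 and 0.101 CPM in Control_captopril and 0.0466, 0 and 0.193 CPM in Control_water. Osmr, the oncostatin M receptor, rose by 1.25 ± 0.09 and 0.93 ± 0.09, and Tnfrsf1a, a tumour necrosis factor receptor, by 0.70 ± 0.06 and 0.46 ± 0.06.

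Macrophage and monocyte genes rose nearly as a whole. Of 26 tested, 24 were higher than in Control_water and 25 than in Control_captopril (medians of 2.74 and 3.23), and their summed level was 2354.1 to 2984.4 CPM in GN_water, 429 to 680 CPM in Control_captopril and 590 to 644 CPM in Control_water. Lyz2, the lysozyme of macrophages and neutrophils (chromosome 10, 117277541 to 117282272), had 578, 866 and 701 CPM in GN_water, 21, 32 and 39.6 CPM in Control_captopril and 31.7, 32.1 and 34 CPM in Control_water. The rise was 21.9-fold and 23.2-fold (adjusted p of 2.93e-07 and 2.01e-06), and Lyz1, a near copy that can share its reads, rose by 5.22 ± 0.43 and 5.49 ± 0.43. Further members of the strongest rises were Ms4a7 (3.57 ± 0.25 and 3.43 ± 0.24), Clec4a1 (3.72 ± 0.22 and 4.13 ± 0.22), Ms4a6d (4.35 ± 0.33 and 3.92 ± 0.30), Fcrls (5.72 ± 0.44 and 6.76 ± 0.48) and Gpnmb, a lysosomal glycoprotein of phagocytes (4.30 ± 0.95 and 5.31 ± 1.03, or 3.58 and 4.59 without GN_water replicate 2). Mrc1, the mannose receptor, and Cybb, the membrane subunit of the phagocyte oxidase, rose by 2.31 ± 0.25 and 2.46 ± 0.25 and by 2.33 ± 0.26 and 2.08 ± 0.25, and are named after their values were seen. Cd163, a haemoglobin scavenger receptor, had at most 0.596 CPM in GN_water, 0.897 CPM in Control_captopril and 0.645 CPM in Control_water and passed against neither (adjusted p of 0.948 and 0.423). Arg1, arginase, had 0.687, 4.85 and 1.43 CPM in GN_water, 0.179, 0.0921 and 0 CPM in Control_captopril and 0.419, 2.31 and 0.322 CPM in Control_water. It did not pass against Control_water (adjusted p = 0.317), and its call against Control_captopril (adjusted p = 0.0279) was lost without any 1 of the Control_captopril libraries or GN_water replicate 2 (adjusted p of 0.0658 to 0.131). Both were named after their values were seen.

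Several phagocyte genes were close to 0 in the controls, so their fold changes are not given. Marco, a scavenger receptor for bacteria, had 6.41, 75.7 and 23.3 CPM in GN_water, at most 0.101 CPM in Control_captopril and at most 0.0607 CPM in Control_water. Saa3, serum amyloid A made outside the liver, had 21.6, 151 and 37.8 CPM in GN_water, 0.269, 0.599 and 0.303 CPM in Control_captopril and at most 0.0645 CPM in Control_water. The formyl peptide receptors Fpr1 (6.46, 10.9 and 8.7 CPM in GN_water) and Fpr2 (4.86, 7.4 and 4.84 CPM), the lectin Clec4n (8.06, 15 and 13.4 CPM) and Irg1, which makes itaconate in activated macrophages (4.95, 8.88 and 5.54 CPM), had at most 0.405 CPM in any Control_captopril and 0.14 CPM in any Control_water library. Cd5l, a secreted macrophage protein, had 1.01, 24.6 and 6.28 CPM in GN_water, at most 0.138 CPM in Control_captopril and at most 0.129 CPM in Control_water. All 7 were named by the rule that requires a call and no overlap against both controls, so passing there is no separate result. GN_water replicate 2 was the highest library for each.

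**Figure D3:**
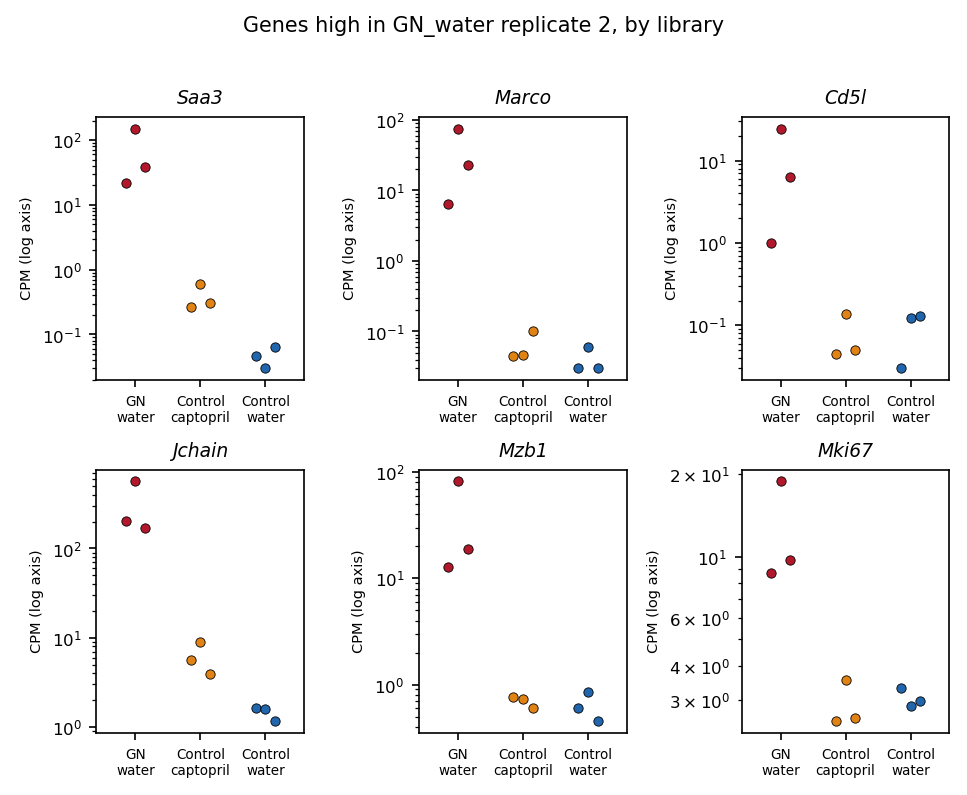
CPM on log axes for 6 genes in each library of GN_water, Control_captopril and Control_water (1 point per library, no error drawn; values under 0.03 CPM are drawn at 0.03). The genes were picked for being high in GN_water replicate 2, and all but Mki67 were named by a rule that requires no overlap with the controls. The middle of the 3 GN_water points, replicate 2, is the highest in each panel, for example 562 CPM of Jchain against 205 and 170 CPM in the other GN_water libraries, and all GN_water points lie above all control points.

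Lymphocyte transcripts rose as well. All 22 T and natural killer cell genes tested were higher than in Control_water and 20 than in Control_captopril (medians of 2.02 and 1.89), where Gzma and Klrb1c did not pass. Cd4, the coreceptor of helper T cells, had 8.29, 12.5 and 11.9 CPM in GN_water, 0.538, 1.24 and 1.67 CPM in Control_captopril and 0.931, 0.728 and 0.967 CPM in Control_water, a rise of 12.4-fold and 9.56-fold (adjusted p of 7.92e-07 and 5.68e-06). Cd3g, a T cell receptor subunit, rose by 2.50 ± 0.25 and 2.47 ± 0.24 and the kinase Lck by 1.77 ± 0.18 and 1.84 ± 0.17. Of 15 B and plasma cell genes tested, 13 were higher than in each control (medians of 2.66 and 3.02). Jchain, which links secreted IgA and IgM (chromosome 5, 88519809 to 88527897), had 205, 562 and 170 CPM in GN_water, 5.7, 8.89 and 3.89 CPM in Control_captopril and 1.63, 1.58 and 1.16 CPM in Control_water. Its log2 rise of 7.72 ± 0.64 and 5.66 ± 0.53 was 6.95 and 4.87 without GN_water replicate 2. The same library was the highest for Mzb1, a chaperone of antibody assembly (12.7, 81.6 and 18.7 CPM in GN_water), Pou2af1, a coactivator of B cells (6.6, 31.1 and 8.9 CPM), and Cd79a, a chain of the B cell receptor (6.83, 30.5 and 8.2 CPM). Their log2 rises of 5.88 and 5.73, 5.43 and 5.18, and 4.23 and 4.16 were 4.57 and 4.42, 4.37 and 4.12, and 3.17 and 3.10 without it, and all stayed past the test. The summed B and plasma cell level was 470, 1062.7 and 482 CPM in GN_water, 223 to 232 CPM in Control_captopril and 201 to 212 CPM in Control_water. Cr2, the complement receptor of B cells and follicular dendritic cells, did not pass against either control (0.22 ± 0.28 and 0.38 ± 0.28).

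In 7 genes of lymphoid tissue, 5 were higher than in each control. Ltb, lymphotoxin beta, rose by 1.72 ± 0.27 and 1.99 ± 0.27. Ccl21a, named after its values were seen, had 4.72, 3.74 and 5.68 CPM in GN_water, 3.54, 4.56 and 4.05 CPM in Control_captopril and 1.49, 1.46 and 2.32 CPM in Control_water. It passed against Control_water alone, with an adjusted p of 0.607 against Control_captopril. Whether lymph node tissue was present in some libraries was not tested. Of 11 dendritic cell genes, 9 were higher than in Control_water (5 without GN_water replicate 1) and 6 than in Control_captopril (medians of 0.83 and 0.82), among them Clec10a, a lectin (2.02 ± 0.32 and 2.50 ± 0.33). All 6 neutrophil genes tested were higher than in Control_water and 4 than in Control_captopril. Csf3r, the granulocyte growth factor receptor, had 5.64, 7.2 and 5.34 CPM in GN_water, 0.449, 0.737 and 0.759 CPM in Control_captopril and 1.72, 1.64 and 0.774 CPM in Control_water, and S100a9, a calprotectin subunit, rose by 1.32 ± 0.33 and 1.85 ± 0.34. The list also holds Hdc, and without it the neutrophil genes summed to 12 to 23.1 CPM in GN_water, 2.42 to 3.18 CPM in Control_captopril and 3.35 to 4.49 CPM in Control_water. Red cell and platelet genes rose less clearly, with 10 of 12 higher than in Control_water (6 without GN_water replicate 3) but 3 than in Control_captopril (1 to 9 when libraries were left out in turn, the highest without Control_captopril replicate 3). The globins Hbb-bt and Hbb-b2 carry identical values, 107, 92.1 and 110 CPM in GN_water, 44.9, 50.7 and 91.8 CPM in Control_captopril and 35.1, 49.4 and 51.4 CPM in Control_water, so the reads of these copies were not told apart.

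Adhesion molecules that hold leukocytes to vessel walls and tubules rose in every GN_water library. Of 16 adhesion and integrin genes tested, 15 were higher than in Control_water and all 16 than in Control_captopril (medians of 1.60 and 1.29). Vcam1, the ligand of leukocyte integrins on activated endothelium and injured tubules (chromosome 3, 116110020 to 116129688), had 62.7, 71.9 and 66.4 CPM in GN_water, 11.9, 15.3 and 14.5 CPM in Control_captopril and 13.1, 10.3 and 12.8 CPM in Control_water. It was 5.54-fold and 4.83-fold higher (adjusted p of 1.88e-09 and 1.35e-07), with no overlap. Icam1, another integrin ligand, was 2.02-fold and 1.92-fold higher, at 44.3, 45.4 and 39.4 CPM in GN_water, 21.7, 25.2 and 20.3 CPM in Control_captopril and 21.6, 20 and 22.3 CPM in Control_water. The leukocyte integrin chain Itgal rose by 2.51 ± 0.23 and 2.41 ± 0.22.

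**Figure D4:**
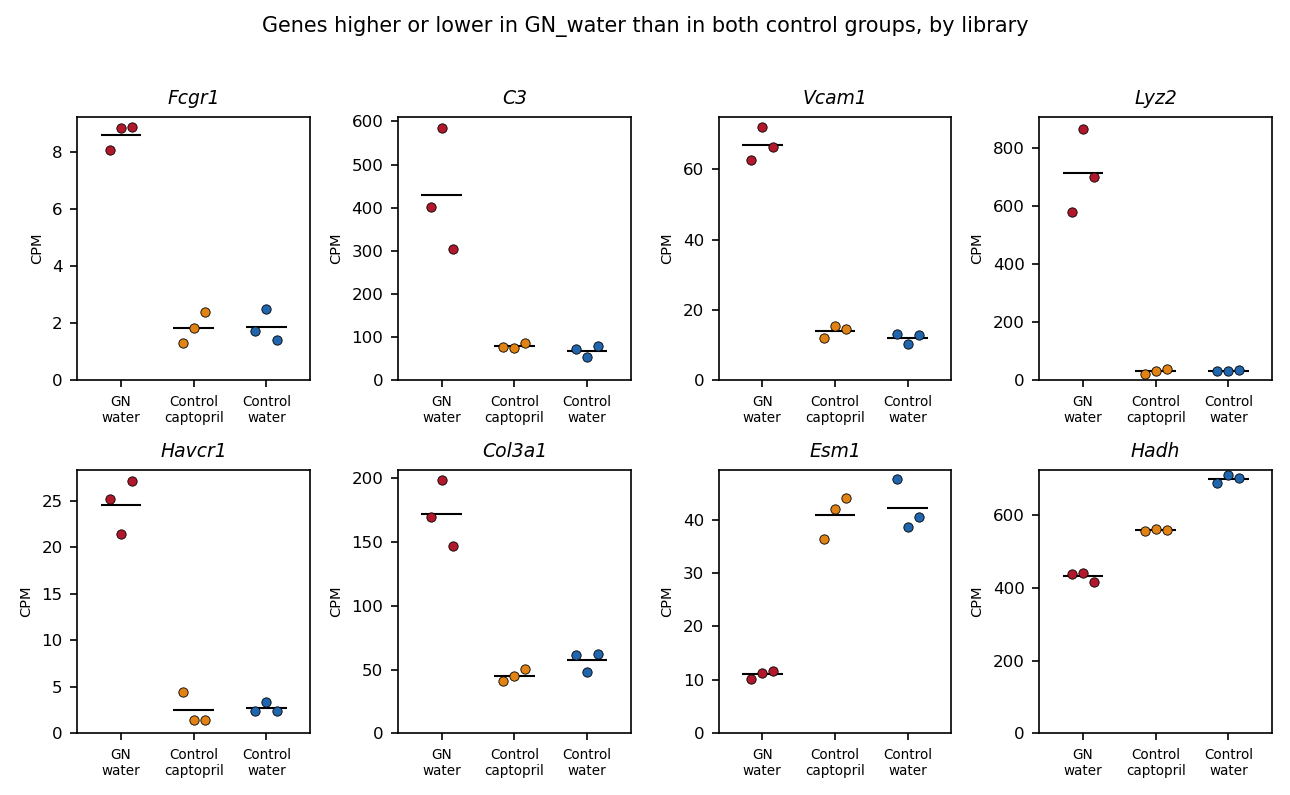
CPM in each library of GN_water, Control_captopril and Control_water for 8 genes that passed the test against both controls (points are libraries, horizontal lines the mean of 3). Fcgr1, C3, Vcam1, Lyz2, Havcr1 and Col3a1 are higher and Esm1 and Hadh lower in all 3 GN_water libraries than in all 6 control libraries, and Hadh also differs between the control groups. Lyz2 and Esm1 were named by a rule that requires no overlap with the controls.

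Genes that sense microbial products, including those of the lipopolysaccharide pathway, rose. Of 24 pattern recognition genes, 22 were higher and 1 lower than in Control_water and 22 higher than in Control_captopril (medians of 1.56 and 1.34). Cd14, the lipopolysaccharide coreceptor, had 23, 23.6 and 20.9 CPM in GN_water, 7.85, 7.41 and 9 CPM in Control_captopril and 4.38, 5.04 and 4.06 CPM in Control_water. Lbp, which delivers lipopolysaccharide to it, rose by 1.90 ± 0.13 and 1.74 ± 0.12 and Tlr2 by 2.33 ± 0.18 and 2.13 ± 0.18. Nfkbia, the inhibitor that NF-kappaB induces against itself, had 41.8, 43.1 and 38 CPM in GN_water, 20.2, 21.4 and 23.9 CPM in Control_captopril and 19.7, 22.7 and 22.1 CPM in Control_water. The 1 lower gene, Ticam1, an adaptor of Toll-like receptors, had 30.6, 32 and 32.5 CPM in GN_water, 35.2, 38.4 and 32.6 CPM in Control_captopril and 40.1, 41.3 and 40.7 CPM in Control_water and did not pass against Control_captopril (adjusted p = 0.261). It was named after its values were seen.

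Interferon response genes were higher in GN_water, but part of that difference from Control_water was shared by the other control. Of 42 tested, 40 were higher than in Control_water and 31 than in Control_captopril (22 to 31 when libraries were left out in turn). The medians were 1.35 and 0.83, and the rest did not pass. Gbp3, an interferon-induced GTPase, had 92.3, 76.2 and 97.9 CPM in GN_water, 86.4, 56.3 and 85.6 CPM in Control_captopril and 9.08, 9.89 and 8.12 CPM in Control_water. It was 9.81-fold above Control_water and overlapped Control_captopril (adjusted p = 0.475). Its relative Gbp2, named after its values were seen, rose against both, at 58, 45.3 and 52.9 CPM in GN_water, 17, 25.2 and 21.3 CPM in Control_captopril and 15.6, 12.6 and 15.8 CPM in Control_water. Bst2, tetherin, which retains enveloped viruses, had 38.1, 39.5 and 43.2 CPM in GN_water, 15.3, 19.8 and 20.8 CPM in Control_captopril and 14.5, 16.9 and 15.3 CPM in Control_water. Oasl2 rose by 1.43 ± 0.15 and 1.09 ± 0.15 and the transcription factor Irf8 by 0.80 ± 0.09 and 0.61 ± 0.08.

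Antigen presentation followed. All 15 class II genes tested were higher than in each control (medians of 1.60 and 1.69), and of 16 class I genes 15 were higher than in Control_water and 14 than in Control_captopril (medians of 1.07 and 0.92). Cd74, the invariant chain that loads class II, had 1105.8, 1121.4 and 1092 CPM in GN_water, 228, 368 and 410 CPM in Control_captopril and 352, 344 and 397 CPM in Control_water, a 3.04-fold and 3.30-fold rise. B2m, the light chain of class I, had 737, 808 and 826 CPM in GN_water, 319, 402 and 492 CPM in Control_captopril and 311, 335 and 323 CPM in Control_water. The class II protease Ctss rose by 2.44 ± 0.23 and 2.42 ± 0.23 and the class I regulator Nlrc5 by 1.68 ± 0.22 and 1.38 ± 0.21. H2-Q6, one of a family of near-identical class I genes, did not pass against Control_captopril (0.21 ± 0.09, adjusted p = 0.106).

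For 4 genes that rose against both controls and whose promoters hold letters that NF-kappaB or interferon-activated factors are known to bind, the RefSeq promoter windows (GRCm38.p6, 250 bases before the annotated start, given on the strand of the gene) are shown. NF-kappaB binds sites such as GGGA and TTTCC with any 1 base between them, and interferon-activated factors bind sites such as GAAA and GAAA with any 2 bases between them. Both strands were searched, and capitals mark the matches. The first motif was in 0.36% and the second in 2.98% of 32851 promoter windows, which include several starts for some genes. Of the interferon list, 18 of 29 genes with a window held the second motif, and of the class I list 3 of 14. The first motif was in 2 of 19 pattern recognition genes and 2 of 21 chemokine genes with a window. The 4 were chosen after their promoters and values were seen, and a match is no evidence that a factor binds in these samples.
Nfkbia, chr12:55492648-55492897, minus strand, first motif: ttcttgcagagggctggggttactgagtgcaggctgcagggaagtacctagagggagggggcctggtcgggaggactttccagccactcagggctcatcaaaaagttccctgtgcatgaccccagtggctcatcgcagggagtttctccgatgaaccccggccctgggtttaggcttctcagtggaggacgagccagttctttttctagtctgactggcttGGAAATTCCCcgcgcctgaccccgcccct
Csf1, chr3:107760470-107760719, minus strand, first motif: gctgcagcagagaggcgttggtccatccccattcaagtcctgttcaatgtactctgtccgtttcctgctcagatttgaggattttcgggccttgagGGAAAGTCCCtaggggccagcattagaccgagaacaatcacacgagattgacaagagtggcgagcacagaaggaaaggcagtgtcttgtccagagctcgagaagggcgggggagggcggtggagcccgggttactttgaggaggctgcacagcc
B2m, chr2:122147437-122147686, plus strand, both motifs without overlap: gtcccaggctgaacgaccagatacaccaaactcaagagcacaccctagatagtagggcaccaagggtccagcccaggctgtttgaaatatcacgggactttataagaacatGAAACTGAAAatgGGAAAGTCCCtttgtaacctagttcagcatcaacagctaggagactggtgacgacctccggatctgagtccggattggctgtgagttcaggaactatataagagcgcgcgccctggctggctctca
Bst2, chr8:71537473-71537722, minus strand, a pair of overlapping matches to the second motif: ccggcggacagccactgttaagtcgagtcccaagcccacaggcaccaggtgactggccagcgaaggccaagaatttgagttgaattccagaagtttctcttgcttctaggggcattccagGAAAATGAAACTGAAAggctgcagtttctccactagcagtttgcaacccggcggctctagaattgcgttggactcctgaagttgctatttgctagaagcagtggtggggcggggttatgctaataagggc

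Of 20 acute phase and iron genes tested, 11 were higher and 3 lower than in Control_water, and 10 were higher than in Control_captopril (medians of 1.07 and 0.93). Lcn2, neutrophil gelatinase-associated lipocalin, which sequesters iron carriers and marks tubular injury (chromosome 2, 32384637 to 32387739), had 22.8, 25.2 and 34.4 CPM in GN_water, 2.29, 1.7 and 1.97 CPM in Control_captopril and 3.86, 4.67 and 5.29 CPM in Control_water, a 6.0-fold and 13.8-fold rise (adjusted p of 4.87e-06 and 2.88e-06). The serine protease inhibitor Serpina3g had 23.4, 24.5 and 23.4 CPM in GN_water, 1.21, 3.18 and 3.14 CPM in Control_captopril and 0.978, 1.64 and 1.22 CPM in Control_water. Cp, the ferroxidase ceruloplasmin, rose by 1.86 ± 0.09 and 0.55 ± 0.08. Slc40a1, ferroportin, the iron exporter, had 112, 125 and 114 CPM in GN_water, 124, 140 and 132 CPM in Control_captopril and 63.9, 58.3 and 62 CPM in Control_water, so its call against Control_water was not shared (-0.17 ± 0.07 against Control_captopril, adjusted p = 0.0745). Fth1, ferritin heavy chain, named after its values were seen, was by contrast lower than in Control_water (-0.38 ± 0.05). Like Slc40a1 it was not different past the test from Control_captopril (0.05 ± 0.05, adjusted p = 0.51).

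Markers of injured tubule epithelium rose. Of 28 tested, 24 were higher and 1 lower than in Control_water, and 20 were higher and 1 lower than in Control_captopril (medians of 1.20 and 0.94). Havcr1, kidney injury molecule 1 of the proximal tubule (chromosome 11, 46739822 to 46779578), had 25.2, 21.4 and 27.1 CPM in GN_water, 4.49, 1.47 and 1.42 CPM in Control_captopril and 2.42, 3.34 and 2.45 CPM in Control_water, an 8.99-fold and 9.83-fold rise (adjusted p of 3.19e-06 and 9.38e-06). Control_captopril replicate 1 was above its group, and without it the log2 rise over Control_captopril was 4.08 in place of 3.30. Spp1, osteopontin, a matrix protein and macrophage attractant of injured tubules, had 3868.3, 3594.9 and 3658.5 CPM in GN_water, 2289.2, 2635.8 and 2455.6 CPM in Control_captopril and 847, 880 and 882 CPM in Control_water. Most of its distance from Control_water was thus also seen in Control_captopril, 4.26-fold and 1.51-fold (adjusted p of 1.87e-09 and 0.000218). Tmsb10, an actin-binding peptide, rose by 1.45 ± 0.12 and 1.36 ± 0.11 and Anxa3 by 1.23 ± 0.10 and 0.85 ± 0.09. Named after their values were seen, Cd44, the osteopontin and hyaluronan receptor, rose by 2.51 ± 0.26 and 2.62 ± 0.26, Krt20, a keratin, by 3.60 ± 0.35 and 3.23 ± 0.32, and the repair factor Sox9 by 1.91 ± 0.33 and 1.27 ± 0.30. The 1 lower gene was Egf, the growth factor of the distal nephron, named after its values were seen, with 1102.9, 1276 and 1077.8 CPM in GN_water, 1959, 1724.3 and 1849.7 CPM in Control_captopril and 2023.8, 1544.5 and 1289.8 CPM in Control_water (-0.49 ± 0.13 and -0.68 ± 0.13, adjusted p of 0.00575 and 0.00141). Cdkn1a, the cell cycle inhibitor p21, also named afterwards, rose 1.58 ± 0.18 on the log2 scale over Control_water and 0.47 ± 0.16 over Control_captopril, where the call was lost without Control_captopril replicate 1 or 2, any 1 of the GN_water libraries or Control_water replicate 3 (adjusted p of 0.0549 to 0.168).

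Cell cycle genes rose with them. Of 27 proliferation genes, 24 were higher than in Control_water, and 24 higher and 2 lower than in Control_captopril (medians of 1.36 and 1.35). Mki67, which marks dividing cells, had 8.7, 18.8 and 9.74 CPM in GN_water, 2.51, 3.55 and 2.58 CPM in Control_captopril and 3.31, 2.85 and 2.97 CPM in Control_water. Ube2c, a ubiquitin enzyme of mitosis, had 5.5, 8.26 and 5.49 CPM in GN_water, 3.14, 2.39 and 1.97 CPM in Control_captopril and 0.559, 0.546 and 0.58 CPM in Control_water. GN_water replicate 2 was the highest for both, as it was for the plasma cell genes, and the source of these transcripts was not tested. Immediate early genes rose in part, with 10 of 19 higher and 1 lower than in Control_water and 12 higher than in Control_captopril (7 without Control_captopril replicate 1 and 7 without GN_water replicate 1). Atf3, a stress factor, rose by 1.92 ± 0.19 and 1.13 ± 0.18 and Klf6 by 0.83 ± 0.06 and 0.43 ± 0.06. Of 18 genes of the unfolded protein response, 4 were higher and 1 lower than in Control_water (2 higher without GN_water replicate 3, but 9 with library totals alone), and 2 higher and 3 lower than in Control_captopril, and the ER stress gene Herpud1 was lower than in both (-0.45 ± 0.12 and -0.64 ± 0.12).

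Matrix genes rose against both controls. Of 48 tested, 40 were higher and 3 lower than in Control_water, and 37 higher and 2 lower than in Control_captopril (medians of 1.17 and 1.11). Col3a1, a fibrillar collagen of the interstitium (chromosome 1, 45311538 to 45349706), had 170, 199 and 147 CPM in GN_water, 40.7, 44.7 and 50.6 CPM in Control_captopril and 61.4, 47.9 and 62.2 CPM in Control_water, 3.01-fold and 3.80-fold higher (adjusted p of 2.88e-06 and 3.72e-06). Col1a1 had 75.4, 82.8 and 68.4 CPM in GN_water, 19.2, 23.5 and 18.4 CPM in Control_captopril and 34.3, 25.5 and 35.8 CPM in Control_water, and no control library reached a GN_water one. Ltbp2, which binds microfibrils, rose by 3.43 ± 0.28 and 3.73 ± 0.28, tenascin C (Tnc) by 1.86 ± 0.13 and 1.62 ± 0.13, Sparc, a collagen-binding glycoprotein, by 1.28 ± 0.10 and 1.26 ± 0.10, and Col6a2 by 1.61 ± 0.12 and 1.68 ± 0.12. Timp1, an inhibitor of metalloproteinases, had 6.19, 5.63 and 5.39 CPM in GN_water, 0.269, 0.414 and 0.86 CPM in Control_captopril and 0.279, 0.607 and 0.709 CPM in Control_water. Mmp13, collagenase 3, was lower than in both, with 0.275, 0.247 and 0.445 CPM in GN_water, 2.24, 3.13 and 3.49 CPM in Control_captopril and 2.51, 2.18 and 2.64 CPM in Control_water (-2.92 ± 0.31 and -3.19 ± 0.31, adjusted p of 6.4e-06 and 1.06e-05). Timp3, an inhibitor bound to the matrix, was lower than in Control_water (-0.60 ± 0.08), and its call against Control_captopril (-0.23 ± 0.08, adjusted p = 0.0453) was lost without Control_captopril replicate 1 or 3, GN_water replicate 3, or Control_water replicate 2 or 3 (adjusted p up to 0.108). These 3 were named after their values were seen. Col27a1, a collagen outside the list, was lower than in both (-1.02 ± 0.14 and -0.85 ± 0.14).

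Of 17 mesangial, pericyte and fibroblast genes, 14 were higher than in Control_water and 12 than in Control_captopril (medians of 0.53 and 0.50), smaller rises than those of the immune lists. Acta2, smooth muscle actin, which also marks myofibroblasts and activated mesangial cells, had 58.4, 57.6 and 50.9 CPM in GN_water, 33.6, 31.7 and 30.6 CPM in Control_captopril and 28.5, 29.2 and 35.5 CPM in Control_water, 1.80-fold and 1.74-fold higher. Tagln rose by 1.21 ± 0.10 and 0.90 ± 0.10 and desmin (Des) by 0.83 ± 0.08 and 0.50 ± 0.08.

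Of 23 podocyte genes tested, 11 were higher and 3 lower than in Control_water (median 0.20; 7 higher without GN_water replicate 1; 16 higher and 2 lower with library totals alone), and 3 were higher and 4 lower than in Control_captopril (median -0.11; 2 lower without Control_captopril replicate 1, and at most 1 higher without GN_water replicate 1 or 2; 5 higher and 2 lower with library totals alone, median -0.03). Wt1, the podocyte transcription factor, had 10.4, 11.6 and 9.79 CPM in GN_water, 17.2, 13.4 and 18.2 CPM in Control_captopril and 11.9, 9.65 and 11.5 CPM in Control_water, lower than in Control_captopril (-0.62 ± 0.12, adjusted p = 0.00167) and not different past the test from Control_water (-0.06 ± 0.12). Vegfa, the endothelial growth factor that podocytes and tubules make, had 101, 105 and 90.6 CPM in GN_water, 127, 123 and 121 CPM in Control_captopril and 173, 147 and 139 CPM in Control_water. It was lower than in Control_water (-0.63 ± 0.10, adjusted p = 0.000182) and, at -0.32 ± 0.10, lower than in Control_captopril (adjusted p = 0.0298), a call lost without Control_captopril replicate 1 or 3 or GN_water replicate 3 (adjusted p up to 0.0841).

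Kdr, the main receptor of Vegfa, had 40.4, 38.4 and 37.1 CPM in GN_water, 73.5, 67.9 and 58.8 CPM in Control_captopril and 79.3, 57.8 and 65.8 CPM in Control_water, 1.75-fold and 1.73-fold lower (adjusted p of 9.1e-05 and 0.000284). Flt1, the decoy receptor, named after its values were seen, was lower by 0.39 ± 0.11 and 0.58 ± 0.11 on the log2 scale, the first lost without Control_water replicate 1 (adjusted p = 0.0676). Esm1, endocan, a proteoglycan that endothelium makes under Vegfa (chromosome 13, 113209659 to 113218104), had 10.2, 11.3 and 11.7 CPM in GN_water, 36.3, 41.9 and 44.1 CPM in Control_captopril and 47.5, 38.6 and 40.4 CPM in Control_water. The controls were alike, and Esm1 was 3.82-fold and 3.68-fold lower (adjusted p of 1.69e-08 and 3.87e-07). A rule that named Esm1 requires a call and no overlap against both controls, so its separation from them is no separate result. Of 20 endothelial genes in the list, 12 were higher and 2 lower than in Control_water, and 10 were higher and 4 lower than in Control_captopril (4 to 10 higher when libraries were left out in turn). Plvap, of fenestral diaphragms, rose by 0.67 ± 0.08 and 0.50 ± 0.08 and Pecam1 by 0.73 ± 0.06 and 0.38 ± 0.06. Ehd3, a marker of glomerular endothelium named after its values were seen, had 31.2, 32 and 30 CPM in GN_water, 46.5, 50 and 55.5 CPM in Control_captopril and 37.3, 32.5 and 33.8 CPM in Control_water, and was lower than in Control_captopril alone.

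Proximal tubule transport was lower in part. Of 40 genes tested, 19 were lower and 6 higher than in Control_water (2 to 6 higher when libraries were left out in turn), and 18 were lower and 1 higher than in Control_captopril (medians of -0.26 and -0.25), 10 being lower than in both. With library totals alone the count against Control_water was 14 lower and 12 higher. Slc22a6, the organic anion transporter OAT1, had 494, 480 and 463 CPM in GN_water, 576, 604 and 698 CPM in Control_captopril and 1365.7, 1307.2 and 1442.8 CPM in Control_water. It was 2.86-fold lower than in Control_water but 1.31-fold lower than in Control_captopril (adjusted p of 3.8e-08 and 0.005). Lrp2, megalin, which takes up filtered protein, had 1490.2, 1383.3 and 1527.2 CPM in GN_water, 1941.5, 1582.8 and 1751.1 CPM in Control_captopril and 1630, 1307.6 and 1272.5 CPM in Control_water. It did not pass against Control_water (0.06 ± 0.09), and its call against Control_captopril (-0.26 ± 0.09, adjusted p = 0.0457) was lost without Control_captopril replicate 1 or 3 or GN_water replicate 2 (adjusted p up to 0.188). Kl, klotho, the coreceptor of the phosphate-lowering hormone FGF23 in the distal tubule, had 415, 447 and 413 CPM in GN_water, 644, 697 and 651 CPM in Control_captopril and 869, 699 and 703 CPM in Control_water, 1.78-fold and 1.56-fold lower with no overlap (adjusted p of 9.1e-06 and 0.000208). Dnase1, which degrades DNA in urine and blood, had 265, 265 and 180 CPM in GN_water, 755, 716 and 726 CPM in Control_captopril and 534, 757 and 670 CPM in Control_water, 2.76-fold and 3.09-fold lower. Gsta2, a glutathione transferase, was higher than in Control_water and lower than in Control_captopril (1.21 ± 0.07 and -0.41 ± 0.07).

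Fatty acid oxidation, the main energy source of the proximal tubule, was lower. Of 35 genes, 20 were lower and 5 higher than in Control_water (2 to 5 higher when libraries were left out in turn). Against Control_captopril 31 were lower while 4 did not pass. The medians were -0.39 and -0.45, and 19 genes were lower than in both. With library totals alone 16 were lower and 7 higher than in Control_water, and 25 lower than in Control_captopril (medians of -0.19 and -0.36). Hadh, a mitochondrial dehydrogenase of the pathway, had 439, 441 and 415 CPM in GN_water, 556, 560 and 559 CPM in Control_captopril and 688, 710 and 701 CPM in Control_water, 1.62-fold and 1.29-fold lower with no overlap (adjusted p of 8.08e-08 and 5.46e-05). Acads, a short-chain dehydrogenase, was lower by 0.93 ± 0.05 and 0.31 ± 0.05 on the log2 scale. Fabp1, a fatty acid binding protein named after its values were seen, had 9.3, 8.26 and 7.27 CPM in GN_water, 13.3, 11.5 and 10.7 CPM in Control_captopril and 3.03, 6.13 and 2.39 CPM in Control_water, higher than in Control_water and not different past the test from Control_captopril (adjusted p = 0.182).

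Respiratory chain genes of the nucleus changed by little. Of 34, 17 were lower and 2 higher than in Control_water (median -0.13), but 4 lower and 12 higher with library totals alone (median 0.07), so their direction there rests on the scaling. Against Control_captopril 11 were lower and 23 did not pass (median -0.10; 8 to 17 lower when libraries were left out in turn, and 3 lower with library totals alone). Ndufs1, a complex I subunit, had 300, 290 and 294 CPM in GN_water, 375, 352 and 352 CPM in Control_captopril and 392, 376 and 353 CPM in Control_water, lower than in both (-0.34 ± 0.05 and -0.29 ± 0.05). None of the 10 mitochondrially encoded genes looked for was in the count table, so they were not analysed here. Of 30 gluconeogenesis and amino acid genes, 18 were lower and 5 higher than in Control_water (12 and 10 with library totals alone), and 19 were lower than in Control_captopril while 11 did not pass (medians of -0.24 and -0.27). Pck1, the rate-limiting enzyme of gluconeogenesis, had 1017.1, 1141.9 and 718 CPM in GN_water, 4281.2, 2777.5 and 4328.8 CPM in Control_captopril and 1596.2, 1149.5 and 1326 CPM in Control_water. It was 3.96-fold lower than in Control_captopril (adjusted p = 9.09e-06), but its call against Control_water (-0.50 ± 0.18, adjusted p = 0.0328) was lost without Control_water replicate 1 or 3 or GN_water replicate 3 (adjusted p up to 0.137). Pck1 is also expressed in fat, and of 11 fat genes tested it was the 1 lower than in Control_captopril and with Lpl among the 2 lower than in Control_water. In each group the library lowest in Pck1 was also the lowest in Adipoq (0.198 CPM in GN_water, 5.2 CPM in Control_captopril and 2.12 CPM in Control_water). Between groups the order differed. GN_water replicate 2 had 13.8 CPM of Adipoq and 1141.9 CPM of Pck1, whereas Control_captopril replicate 2 had 5.2 and 2777.5 CPM. The part of fat in the Pck1 values was not tested. Agxt2 and Haao, of amino acid breakdown, were lower than in both, by 0.93 ± 0.07 and 0.33 ± 0.07, and by 0.89 ± 0.07 and 0.28 ± 0.07 on the log2 scale.

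Of 34 drug metabolism genes, 20 were lower and 8 higher than in Control_water (median -0.76), but 10 lower and 3 higher than in Control_captopril (median -0.12; 7 lower and 5 higher with library totals alone), and 6 were lower than in both. Cyp4b1, a monooxygenase induced by androgens, had 407, 360 and 297 CPM in GN_water, 441, 516 and 508 CPM in Control_captopril and 4667.5, 4724.3 and 5467 CPM in Control_water. Cyp2d12 differed, with 54.3, 63.7 and 48.5 CPM in GN_water, 184, 159 and 168 CPM in Control_captopril and 204, 210 and 141 CPM in Control_water, 3.32-fold and 3.07-fold lower against controls that were alike. Of 23 oxidative stress genes, 6 were higher and 11 lower than in Control_water (8 higher and 8 lower with library totals alone). Against Control_captopril 6 were higher and 7 lower (7 higher and 4 lower with library totals alone). Rac2, a GTPase of the phagocyte oxidase, rose (2.54 ± 0.24 and 2.52 ± 0.23), as did the cystine transporter Slc7a11, named after its values were seen, while Cat, peroxisomal catalase, had 836, 825 and 718 CPM in GN_water, 1199.2, 1193.9 and 1138.4 CPM in Control_captopril and 1490.7, 1445.7 and 1474.8 CPM in Control_water. Gpx1, glutathione peroxidase, was lower than in Control_water (-0.76 ± 0.06) and not different past the test from Control_captopril (-0.07 ± 0.06, adjusted p = 0.454). Nox4, the tubular oxidase named after its values were seen, had 432, 469 and 420 CPM in GN_water, 736, 684 and 740 CPM in Control_captopril and 500, 485 and 422 CPM in Control_water.

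In the distal tubule and aldosterone response list more members were lower than in Control_captopril than the 13.2% of all genes. The share of all genes higher than in Control_water was 27.4%, to be read beside the count of higher members. Of 23 distal tubule and aldosterone response genes, 8 were higher and 2 lower than in Control_water (median 0.18; 5 higher without GN_water replicate 1 or 2 or Control_water replicate 2 or 3; 16 higher with library totals alone), but 2 were higher and 14 lower than in Control_captopril (median -0.38). Pvalb, parvalbumin of the early distal convoluted tubule (chromosome 15, 78191112 to 78206400), had 4.03, 6.66 and 4.89 CPM in GN_water, 33.8, 37.4 and 39.4 CPM in Control_captopril and 1.16, 0.789 and 1.22 CPM in Control_water. It was 4.88-fold higher than in Control_water and 7.06-fold lower than in Control_captopril (adjusted p of 5.7e-06 and 6.42e-07). Calb1, calbindin, had 259, 294 and 221 CPM in GN_water, 499, 588 and 525 CPM in Control_captopril and 203, 132 and 127 CPM in Control_water, likewise between the controls. Slc12a3, the thiazide-sensitive sodium chloride cotransporter, had 467, 537 and 433 CPM in GN_water, 891, 942 and 838 CPM in Control_captopril and 592, 445 and 516 CPM in Control_water, lower than in Control_captopril alone (-0.89 ± 0.12, adjusted p = 9.23e-05). Sgk1, the kinase that aldosterone induces, was the member that rose against both, at 165, 119 and 152 CPM in GN_water, 86.9, 78.3 and 112 CPM in Control_captopril and 48.6, 66.7 and 45.5 CPM in Control_water (1.44 ± 0.16 and 0.66 ± 0.15). S100g, another calcium-binding protein, was higher than in Control_water and lower than in Control_captopril (0.81 ± 0.09 and -0.38 ± 0.09).

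Of 15 thick ascending limb genes, 6 were higher and 4 lower than in each control, with medians of 0.15 and -0.02 (0.35 and 0.07 with library totals alone, where 1 and 2 were lower; 3 higher than in Control_water without GN_water replicate 1 or 3, and 2 lower than in Control_captopril without its replicate 1). Umod had 4521.9, 4123.9 and 5081.5 CPM in GN_water, 5323.4, 4077.5 and 4523.2 CPM in Control_captopril and 3058.8, 3289.4 and 2515.8 CPM in Control_water, and did not pass against Control_captopril (-0.02 ± 0.13, adjusted p = 0.925). Kcnj1, the potassium channel ROMK, was higher than in Control_water and lower than in Control_captopril (0.58 ± 0.08 and -0.32 ± 0.08). Among 18 collecting duct genes, 8 were higher than in Control_water (13 with library totals alone), and 4 were higher and 3 lower than in Control_captopril. Aqp2, the vasopressin-regulated water channel, rose against both, with 276, 231 and 337 CPM in GN_water, 153, 130 and 124 CPM in Control_captopril and 115, 200 and 148 CPM in Control_water (0.87 ± 0.18 and 1.05 ± 0.18). Foxi1, the master factor of intercalated cells, had 47.1, 42.6 and 49.2 CPM in GN_water, 39.1, 46.4 and 45.2 CPM in Control_captopril and 25.2, 28.6 and 22.3 CPM in Control_water. Of 12 genes of the medulla, 4 were higher than in Control_water (9 with library totals alone), and 5 were higher and 2 lower than in Control_captopril (2 to 5 higher when libraries were left out in turn). Slc14a2, the urea transporter of the inner medulla named after its values were seen, had 65.2, 24.8 and 88.9 CPM in GN_water, 29, 8.89 and 6.12 CPM in Control_captopril and 31.8, 67.2 and 35.7 CPM in Control_water. The depth of cortex sampled may differ between libraries, and its part in these values was not tested.

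Renin was the member of its system that differed most. Of 18 renin, angiotensin and kinin genes tested, 6 were higher and 8 lower than in Control_water and 1 was higher and 6 lower than in Control_captopril. Ren1 (chromosome 1, 133350674 to 133360320) had 23.3, 30.2 and 20.8 CPM in GN_water, 63.4, 78.2 and 82.8 CPM in Control_captopril and 1142.5, 1083 and 1794 CPM in Control_water. It was 54.0-fold lower than in Control_water and 3.01-fold lower than in Control_captopril (adjusted p of 2.24e-09 and 0.00016). GN_water lay apart from both controls, which a rule that named Ren1 required. The control groups did not overlap each other either, so most of the first difference also separated the controls. Captopril is known to raise renin, whereas here the controls labelled with captopril had less than those labelled with water. The labels of the control groups may have been exchanged, and the sex-linked transcripts differ between these groups as well. For Ren1 these data cannot tell an exchange of labels, the sex-linked difference and an effect of treatment apart. All groups are named by their deposited labels. If labels were exchanged, each pair of fold changes would refer to the other control. Akr1b7, an aldo-keto reductase of renin cells and the adrenal cortex, had 1.15, 0.946 and 0.988 CPM in GN_water, 2.78, 1.66 and 31.8 CPM in Control_captopril and 5.54, 6.55 and 14.1 CPM in Control_water. Both of its calls were fragile. They were lost without any 1 of the GN_water libraries or Control_water replicate 3 in the first (adjusted p of 0.0523 to 0.0798), and without Control_captopril replicate 3, which also held adrenal transcripts, or GN_water replicate 2 in the second (adjusted p of 0.188 and 0.0514; log2 fold change -1.11 in place of -3.54 without that Control_captopril library). Ace, the converting enzyme that captopril inhibits, at 256, 200 and 214 CPM in GN_water, 251, 213 and 271 CPM in Control_captopril and 381, 392 and 355 CPM in Control_water, was lower than in Control_water alone (-0.75 ± 0.10, then -0.13 ± 0.10). The receptor Agtr1a passed against neither (-0.09 ± 0.06 and -0.04 ± 0.06). These 2 were named after their values were seen. Aldh1a2, which makes retinoic acid, rose against both (1.94 ± 0.14 and 1.19 ± 0.13), and Klk1, tissue kallikrein, was higher than in Control_water and lower than in Control_captopril (0.64 ± 0.07 and -0.33 ± 0.07).

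Adrenal genes bear on the second control. Of 9 tested, 1 was higher and 1 lower than in Control_water, whereas 5 were lower than in Control_captopril, and those calls were lost when Control_captopril replicate 3, or any 1 of the GN_water libraries, was left out. Cyp11a1, which starts steroid synthesis, had at most 0.148 CPM in GN_water, 28.8 CPM in that library and at most 0.583 CPM in the other Control_captopril libraries, and at most 0.129 CPM in Control_water. Liver and pancreas genes gave 4 of 7 lower than in Control_water and 1 higher and 1 lower than in Control_captopril. Alb, albumin, had 11.5, 25.4 and 11.7 CPM in GN_water, 25.8, 25.9 and 23 CPM in Control_captopril and 24.9, 103 and 21.7 CPM in Control_water, where replicate 2 stood high. In the muscle and mesothelium list 1 of 6 was higher than in Control_water and 1 lower than in Control_captopril. Among 11 sex-linked genes, 6 were higher and 4 lower than in Control_water, and 4 lower than in Control_captopril.

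Genes of the circadian clock were lower against both controls. Of 20 clock genes, 12 were lower and 3 higher in GN_water than in Control_water, and 12 were lower and 4 higher than in Control_captopril (medians of -0.55 and -0.66; 1 to 3 and 1 to 4 higher when libraries were left out in turn), 10 being lower than in both. Dbp, a clock output factor (chromosome 7, 45705100 to 45710203), had 10.4, 8.92 and 6.28 CPM in GN_water, 48, 42.9 and 46.6 CPM in Control_captopril and 39.2, 49.4 and 59.1 CPM in Control_water, 5.73-fold and 5.35-fold lower (adjusted p of 7.54e-08 and 1.27e-06). Per3 had 4.49, 4.93 and 4.25 CPM in GN_water, 16.2, 11.8 and 13 CPM in Control_captopril and 18.5, 18.5 and 20.1 CPM in Control_water. Per2 was lower by 1.42 ± 0.20 and 1.24 ± 0.20 on the log2 scale, Nr1d2, a repressor of the loop, by 1.02 ± 0.07 and 0.99 ± 0.07, and Tef, a relative of Dbp, by 1.25 ± 0.08 and 0.94 ± 0.08. Ciart, a repressor named after its values were seen, had 0.321, 0.288 and 0.148 CPM in GN_water, 1.3, 0.875 and 1.72 CPM in Control_captopril and 1.4, 1.4 and 2.06 CPM in Control_water. Arntl, the activator of the loop, had 17.8, 22 and 21.1 CPM in GN_water, 16.6, 12.3 and 8.5 CPM in Control_captopril and 16.4, 11.9 and 12.1 CPM in Control_water (0.58 ± 0.21 and 0.70 ± 0.21, adjusted p of 0.0311 and 0.0207). Nfil3, which represses at the sites that Dbp activates, rose by 1.21 ± 0.22 and 0.72 ± 0.22. The Arntl calls were lost without GN_water replicate 2 or 3, Control_water replicate 2 or 3, or Control_captopril replicate 2 or 3 (adjusted p up to 0.114), and the second Nfil3 call without GN_water replicate 1 or 3 or Control_captopril replicate 2 (adjusted p up to 0.0965). Per1 did not follow the other Per genes, at 35.5, 32.3 and 34.6 CPM in GN_water, 13.3, 12.8 and 41.4 CPM in Control_captopril and 13.9, 20.3 and 19.1 CPM in Control_water, and its call against Control_water (adjusted p = 0.0372) was lost without any 1 of the GN_water or Control_water libraries (adjusted p of 0.0549 to 0.129). Arntl, Nfil3 and Per1 were named after their values were seen. The hour at which each cortex was taken is not in the labels, and its part in these differences was not tested.

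**Figure D5:**
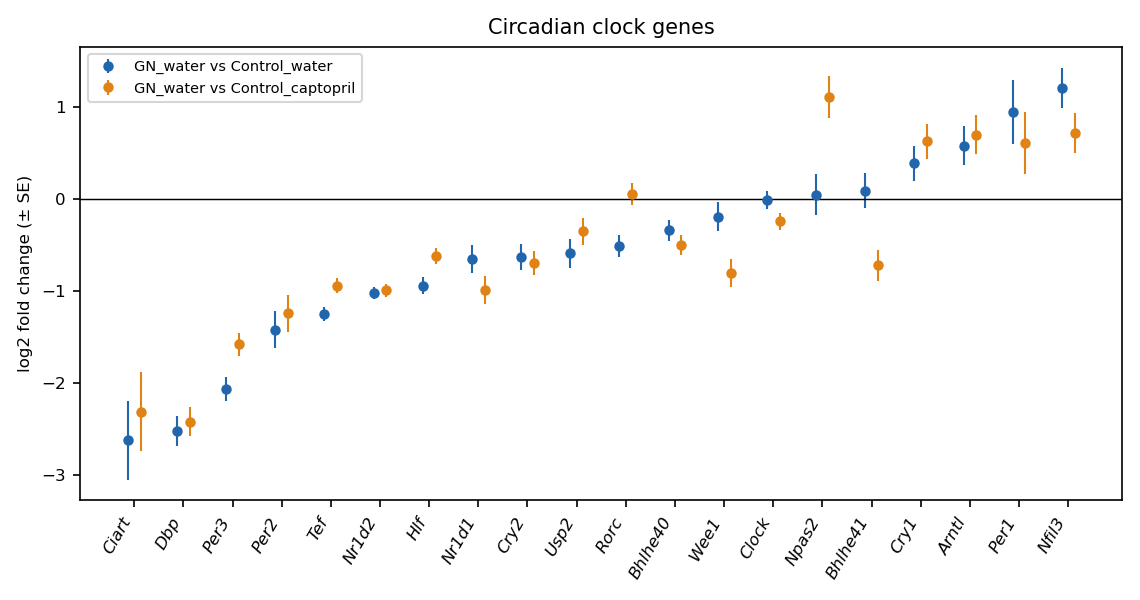
Log2 fold change with its standard error for 20 clock genes in GN_water relative to Control_water (blue) and to Control_captopril (orange), 3 libraries a group, ordered by the first value; the horizontal line marks no change. Ciart, Dbp, Per3, Per2, Tef and Nr1d2 lie at -0.94 or lower in both comparisons and Nfil3 and Arntl above 0 in both, while Npas2 and Bhlhe41 differ between them.

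In the clock, Arntl and its partner activate through the E-box CACGTG, and Dbp and Tef activate, and Nfil3 represses, through the D-box TTATGNAA. Of 32851 promoter windows 6.02% held the first and 3.07% the second on either strand. Of 16 clock genes with a window, 5 held the E-box and 2 the D-box. The windows of Ciart, with 3 E-boxes, and of Per3, with 2 D-boxes, are shown as examples chosen after both were seen, with the motifs in capitals and none overlapping (RefSeq, GRCm38.p6).
Ciart, chr3:95882229-95882478, minus strand: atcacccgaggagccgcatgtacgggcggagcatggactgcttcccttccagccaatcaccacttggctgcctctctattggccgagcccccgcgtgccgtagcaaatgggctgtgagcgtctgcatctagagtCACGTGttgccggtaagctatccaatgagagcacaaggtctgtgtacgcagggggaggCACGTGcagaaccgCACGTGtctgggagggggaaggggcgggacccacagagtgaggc
Per3, chr4:151044666-151044915, minus strand: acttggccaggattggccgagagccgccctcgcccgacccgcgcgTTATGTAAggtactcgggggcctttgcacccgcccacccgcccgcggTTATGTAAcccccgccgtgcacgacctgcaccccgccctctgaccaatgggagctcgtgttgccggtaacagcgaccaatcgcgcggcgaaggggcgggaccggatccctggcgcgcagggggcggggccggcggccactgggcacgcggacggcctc

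The remaining genes lower than in both controls by the most were of varied function. Besides those above they included Cyp2a5, a monooxygenase that was lower by 2.27 ± 0.35 and 1.30 ± 0.34 on the log2 scale, with 39.6, 33.1 and 29.6 CPM in GN_water, 106, 73.5 and 71.2 CPM in Control_captopril and 89.1, 122 and 282 CPM in Control_water. Its second call was lost without Control_captopril replicate 1 (adjusted p = 0.0526), and the first change was 1.63 without Control_water replicate 3, which stood high. The aldehyde dehydrogenase Aldh1a7 (-1.37 ± 0.21 and -1.16 ± 0.21), the nuclear noncoding RNA Malat1 (-1.06 ± 0.14 and -0.91 ± 0.14), the mitochondrial coenzyme A carrier Slc25a42 (-0.99 ± 0.09 and -0.90 ± 0.09), the pantetheinase Vnn1 (-0.88 ± 0.10 and -1.21 ± 0.10), the RNA editing cofactor A1cf (-1.03 ± 0.16 and -0.87 ± 0.16), the trans-Golgi protein Tgoln2 (-0.87 ± 0.19 and -1.04 ± 0.19) and the transporter Slc10a5 (-1.12 ± 0.11 and -0.86 ± 0.11) were lower against both. Azgp1, a secreted lipid-mobilising glycoprotein, had 9.58, 9.91 and 9.44 CPM in GN_water, 20.9, 14.2 and 17.9 CPM in Control_captopril and 98.2, 148 and 207 CPM in Control_water, and its call against Control_captopril (-0.87 ± 0.26, adjusted p = 0.0222) was lost without Control_captopril replicate 1 or 3 (adjusted p of 0.0903 and 0.0513).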

How the data were processed

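The data were 12 stranded mRNA libraries of mouse kidney cortex, 3 per labelled group, of which 9 are used here and GN_captopril enters only the shared estimate of spread. The authors deposited expected counts, estimated reads per gene symbol that need not be whole, and RPKM values scaled by them for depth and length. Bowtie2 and Partek with mm10 are named in the submitters' processing notes. For neither is a version given in the sources used here, and the gene annotation is likewise not stated. Expected counts were rounded. Genes passing filterByExpr (minimum count 10, minimum total 15) numbered 14618. They were scaled by TMM and tested with edgeR 4.0.16 (R 4.3.3), quasi-likelihood, 1 mean per group over the 12 libraries, two-sided, adjusted by Benjamini-Hochberg at 0.05. SE is the absolute log2 fold change over the square root of F. CPM use TMM-adjusted totals, and a fold is 2 to the fitted log2 change. Gene positions come from RefSeq GRCm38.p6, which shares mm10 coordinates, with 23275 of 24452 symbols matched directly and 1054 through a unique older symbol. The counting may not be split correctly between near-identical or overlapping genes. The script was tested on simulated data.

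Genes were named by a rule: the 12 higher and 12 lower with the largest change against Control_water (at least 5 CPM, no overlap), the 20 higher and 20 lower with the largest smaller change against both controls, up to 4 members per list by adjusted p, and 20 fixed genes, with predicted genes and antigen receptor segments left out of the first parts. Not every list member that met the rule is described. Members, the 46 lists and tests were chosen with earlier results of these data known. Alternatives were DESeq2 1.42.0, limma 3.58.1 on log2(RPKM + 0.01), other scalings and filters, fewer libraries, a replicate block and leaving out each library. Figures used matplotlib.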

Additional observations from a re-analysis of the deposited data

How the results depend on the processing

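Counts of calls moved by over 1.5 times under 2 settings. With library totals alone 6758 genes were higher and 1575 lower in GN_water than in Control_water and 1002 lower than in Control_captopril, and with limma on log2(RPKM + 0.01) 6295 were higher and 1533 lower than in Control_water and 935 lower than in Control_captopril. The first setting differs only in leaving out composition scaling, which puts the median gene at 0.21 on the log2 scale against Control_water. The second also changes the test and the unit (median 0.19), and the cause was not tested. Leaving out 1 library in turn gave 3203 to 3926 genes higher and 3116 to 3990 lower than in Control_water, 1742 to 2597 higher and 1302 to 2417 lower than in Control_captopril, and 3862 to 4730 differing between the controls. DESeq2 gave 3557 higher and 3648 lower than in Control_water. No named gene changed direction while called in any alternative run. The title numbers share no stated source. Same-numbered libraries correlated in their deviations from the group means at -0.019, -0.16 and -0.067 between GN_water and Control_water, at 0.102, 0.042 and -0.072 between GN_water and Control_captopril, and at 0.175, 0.005 and 0.115 between Control_captopril and Control_water, so in no comparison were all above 0.1, and the numbers were not taken as pairs. A fit with them as a replicate block gave 3990 higher and 3571 lower, 2542 and 2084 against Control_captopril, and 4836 between the controls. Depth limits the genes under about 1 CPM, whose control values rest on a few counts.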
